A study of Mus musculus with 4 samples.

Results

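The cytosolic ribosomal protein genes of cardiac mesenchymal progenitors (CMPs) were followed on 4 microarrays, from untreated cells to day 8 after transduction with Oct4, Sox2, Klf4 and c-Myc (OSKM). The genes were chosen by name alone. Every probe other than a control spot whose gene name was Rpl or Rps with a number (and at most a letter a, l or x), or Rplp0, Rplp1 or Rplp2, was taken, and pseudogene names ending in -ps were left out. This gave 181 probes for 81 genes, of 55681 probes for 34844 gene names on the array. Of these, 177 probes for 79 genes were well above background on at least 1 array and were used, 49 genes of the large subunit and 30 of the small subunit. The remaining 4 probes, among them both probes of Rpl10l and the probe of Rpl3l, were well above background on no array. All but 2 of the 177 passed that limit on all 4 arrays.

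RNA came from Sca-1+ cells of the adult heart of C57BL/6 mice, called CMPs by the labels and taken from the atria by the study's methods. The control was CMPs without any treatment at day 0, grown in DMEM/F12 with 10% FBS and 40 ng/ml bFGF by the labels. The other samples were CMPs given OSKM by Sendai virus (OSKM-CMPs) and collected at day 4, day 6 and day 8. For these the labels give the same FBS and bFGF as for the control, while the methods describe a reprogramming medium based on knockout DMEM. The methods also give a lower bFGF concentration for the culture of CMPs than the labels do. Each condition was 1 array with 250 ng of total RNA labelled with Cy3. There was no array of untreated CMPs at a later day or of virus without the factors, so that time in culture, medium, virus and factors cannot be told apart. No p-value can be given for any difference between conditions.

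The ribosome that translates nuclear messages in the cytosol is built from a small subunit, which reads the mRNA, and a large subunit, which joins amino acids. Each ribosomal protein is needed in about equal numbers, and the mRNAs of the family are among the most abundant of a growing cell. Many of them start with a run of pyrimidines at the 5′ end, the terminal oligopyrimidine motif, through which the mTOR pathway and Larp1 control their translation, while Myc is known to raise the transcription of ribosome genes.

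The signal of 56.6% to 59.6% of all probes stood well above background, depending on the array, and no spot was saturated. Repeated spots of a probe had a median SD of 0.07 on the log2 scale on each array. A level is given here as the log2 signal minus the 75th percentile of its array, and a difference as one level minus another. The error after ± is 1 SD from the error model of the scanner software and covers neither cultures nor RNA preparation. Errors of the probes of a gene were combined as for a mean, so that a gene with more probes has a smaller error. Disagreement between the probes of a gene is not included. All 12 markers of mesenchymal progenitors were well above background on all 4 arrays, with a summed signal of 1712 times the 75th percentile in the control, then 1515, 1397 and 1373 on days 4, 6 and 8. At day 8, 10 of these 12 were lower than the control, with a median of -0.45. At 1.5-fold, 5 were lower and 2 higher, against 19.6% and 23.3% of all genes. The 12 adipocyte markers summed to 9.91 in the control, then to 94.1, 326.9 and 596.9, and Adipoq, Cfd, Cidec, Lep and Plin1 were not well above background in the control. The 5 measured smooth muscle markers summed to 601.0 in the control and 26.3 at day 8. The 10 measured leukocyte markers summed to between 3.45 and 3.57, the 7 endothelial markers to between 1.13 and 1.97 and the 8 cardiomyocyte markers to between 4.43 and 12.1. The last sum was set by Tnnt2, at a level of 3.56 in the control and 1.96 at day 8, while 5 of these 8 markers were 1.5-fold higher at day 8, with a median of 1.04 from levels near background. Of the 7 endothelial markers, 4 were 1.5-fold lower at day 8 and 1 was higher, with a median of -2.32, which ran from -2.65 to -0.38 over the scales used. All 7 were well above background in the control and 4 at day 8. Of the markers, Laptm5, Erg, Actc1, Pln and Myh11 were above background on no array. These markers moved on the same arrays as the ribosomal protein genes, and their part in the results was not tested. In RNA from whole cultures, fewer cells of a type and less RNA per cell cannot be told apart.

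The start of the gene is shown for 8 members, since the pyrimidine run was not used to choose them and many of them share it. The windows hold 30 bases on the strand of the gene, beginning 20 bases before the start annotated by RefSeq on GRCm38.p6, and capitals mark the longest run of a C followed by 5 or more C or T found from 10 bases before to 29 bases after the start. The windows of Rpl35 and Rpl27a end within the run, which is 18 and 20 bases long in these genes.

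Rpl35 (chr2:39005122-39005151, minus strand): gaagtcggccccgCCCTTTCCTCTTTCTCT

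Rpl7a (chr2:26910787-26910816, plus strand): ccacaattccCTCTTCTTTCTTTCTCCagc

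Rpl27a (chr7:109519175-109519204, plus strand): cgcgagacttcgtgagCTCCTCCCTTTTCC

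Rps18 (chr17:33955656-33955685, minus strand): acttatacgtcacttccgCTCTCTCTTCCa

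Rps6 (chr4:86857358-86857387, minus strand): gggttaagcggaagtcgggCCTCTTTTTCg

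Rplp2 (chr7:141447631-141447660, plus strand): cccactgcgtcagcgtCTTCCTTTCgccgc

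Rplp0 (chr5:115559447-115559476, plus strand): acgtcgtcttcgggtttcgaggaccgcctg

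Rps28 (chr17:33824553-33824582, minus strand): tcctgggtaccgcgtgcggtctcgcgagag

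The last pair of windows holds no such run. Of the 81 genes, 61 had a start in the RefSeq table, and 39 of these (63.9%) had the run, against 30.7% of the 27025 genes in the table. CCGGAAG, searched on both strands from 250 bases before to 50 after the start, was present in 25 of the 61 (41.0%) against 9.93% of all genes. CACGTG, the E-box that Myc can bind, was present in 6 (9.84%) against 8.09%, and TATAAA from 40 to 15 bases before the start in 1 (1.64%) against 2.41%. The 39 genes with the pyrimidine run had a median difference of -0.18 from the control at day 8, and the 20 measured genes without it had -0.19. At day 4 the same groups had 0.10 and 0.10, so that members with and without the run lay together on these arrays.

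The ribosomal protein genes stayed close to the control, with small differences that mostly shared a sign on each array, and that sign turned at day 4, day 6 or day 8 under some of the scales given below. At day 4 the median over the 79 genes was 0.10 above the control on the log2 scale, with 69 genes higher and 10 lower. At day 6 the median was -0.08, with 19 genes higher and 60 lower, and at day 8 it was -0.20, with 9 genes higher and 70 lower. Over all 24541 genes measured, the medians were 0.00, -0.04 and -0.01, with 50.2% of the genes higher than the control at day 4, and 52.6% lower at day 6 and 50.6% at day 8. The highest of the 4 levels was at day 4 for 68 of the 79 genes (21.4% of all genes), and the lowest was at day 8 for 69 (27.8%). Between the OSKM-CMP arrays, 78 genes were lower at day 6 than at day 4 (median -0.20, against 54.8% of all genes lower) and 75 were lower at day 8 than at day 6 (-0.13, against 48.3%). From day 4 to day 8, 77 were lower (-0.33, against 50.4%). A steady decline over days 4, 6 and 8 was seen in 75 of the 79 genes, or 94.9%, and in 28.8% of all genes. These counts belong to the 75th percentile as the scale, and the others follow.

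**Figure D1:**
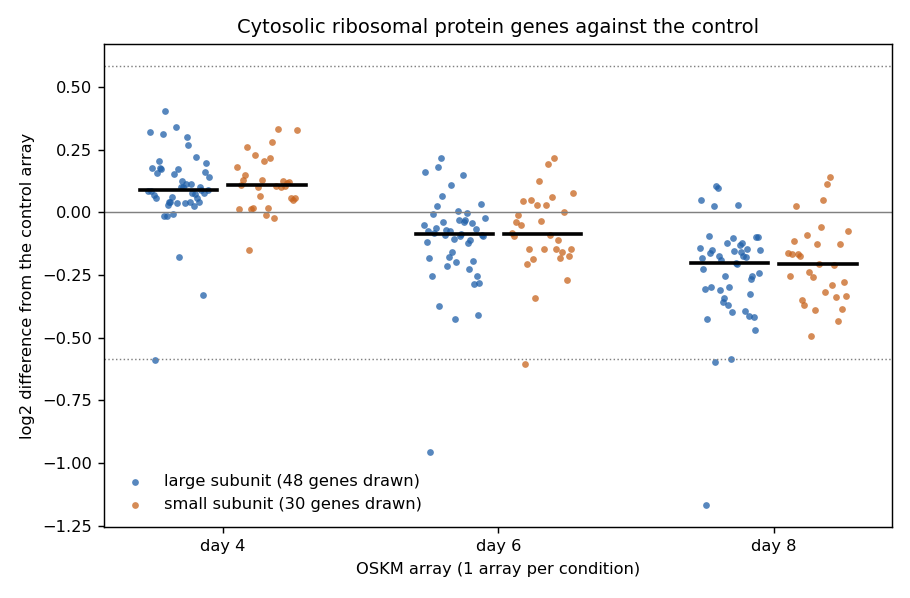
Log2 difference from the control array (y axis) of each ribosomal protein gene on the OSKM-CMP arrays of days 4, 6 and 8 (x axis), large subunit in blue and small subunit in orange, with the median over all genes of the subunit as a black bar and 1.5-fold as dotted lines. Rpl39l, at -3.55, -5.23 and -5.38, lies below the axis and is counted in the medians; the 2 subunits lie together on each day, above the control at day 4 and below it at day 8, although quantile normalization puts the median of day 8 at 0.03 and the array median scale puts that of day 4 at -0.04.

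Few of these differences were large. At 1.5-fold, no ribosomal protein gene was higher than the control at day 4 and 2 of 79 were lower (Rpl39l and Rpl13a), where 18.8% of all genes were higher and 17% lower. At day 6, 0 were higher and 3 lower (with Rps15a), against 19.6% and 20% of all genes. At day 8, 0 were higher and 4 lower (Rpl39l, Rpl13a, Rpl21 and Rpl30), against 23.3% and 19.6%. Rpl30 lay at the threshold itself, at -0.59, and Rps2 just outside it, at -0.50. Under the 7 scales described next, Rpl39l and Rpl13a were called under all and Rpl21 and Rpl30 under 2. The differences were compared with the error of each gene, which had a median of 0.14 and followed mainly the number of its probes. At day 4, 24 of the 79 genes were higher by more than their error, no larger a share than the 33.1% of all genes, and 4 were lower. At day 8, 53 genes were lower by more than their error (37.3% of all genes), 30 of them by more than 2 errors (25.3%), and 0 were higher by more than their error. For the 4 lower at day 4 and the 0 higher at day 8, the share of all genes was not counted. The counts past the error were made with the 75th percentile alone. Under the scales that shift an array by a constant, 63 to 79 of the 79 genes were lower than the control at day 8 by any amount. With quantile normalization, 45 of the 79 genes were higher. From day 4 to day 8, 72 genes were lower by more than their error (30.1% of all genes). At 1.5-fold, Rps21 and Rpl39l were lower and none was higher, against 9.72% and 13% of all genes. From day 4 to day 6, Rpl39l alone was lower and none was higher, against 8.31% and 7.08%. Rpl39l was not well above background on any of these days, so that its differences between them compare background values and are no result. From day 6 to day 8 no gene was, against 3.87% lower and 8.7% higher. At 2-fold, the genes lower than the control numbered 1, 1 and 2 on days 4, 6 and 8, against 8.68%, 10.8% and 10.5% of all genes, and from day 4 to day 8 Rpl39l alone was past it, against 3.68%.

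The direction against the control depended on the scale set between arrays. With quantile normalization the medians of the 79 genes were 0.11, 0.08 and 0.03 at days 4, 6 and 8, and most genes were higher than the control at day 8. With the array median as the scale they were -0.04, -0.22 and -0.47, but then the median over all genes itself moved to -0.14, -0.17 and -0.28. The difference between the median of the ribosomal protein genes and that of all genes was 0.10, -0.04 and -0.19 under each of the 5 scales that shift an array by a constant, and 0.12, 0.10 and 0.07 under quantile normalization. The 8 spike-in RNAs used, added in equal amounts, gave medians of 0.02, -0.01 and -0.11 when they were taken as the scale. The median of day 8 minus day 4 was below 0 under all 7 scales, from -0.46 to -0.10, with 64 to 79 of the 79 genes lower. The counts of genes were less steady than this sign. The steady decline was seen in 42 genes with quantile normalization and in 49 on the spike-in scale, against 29% and 16.6% of all genes. Day 4 held the highest level of 25 genes with the array median, of 31 on the spike-in scale and of 46 with quantile normalization, and day 8 the lowest of 32 genes with quantile normalization. From day 4 to day 6, 52 genes were lower with quantile normalization and 53 on the spike-in scale.

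**Figure D2:**
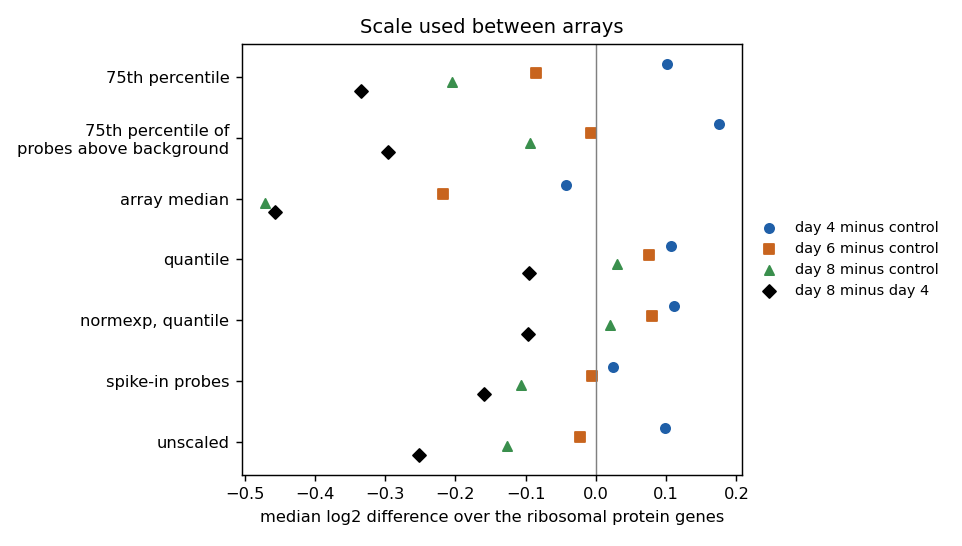
Median log2 difference over the 79 ribosomal protein genes (x axis) under 7 scales between arrays (y axis), for days 4, 6 and 8 minus the control and for day 8 minus day 4. The values of day 8 minus day 4 are below 0 in every row, from -0.46 to -0.10, while those against the control lie on either side of 0.

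In the 2 brightest bands, which hold most members, other genes of the same signal had median differences of similar size and the same sign. Of the ribosomal protein genes, 29 had a mean level over the 4 arrays between 6 and 8, with a median of -0.28 at day 8, and the 706 other genes in that band had -0.31. From level 8 upward, the 38 ribosomal protein genes had -0.15 and the 232 other genes -0.22. At day 4 the medians in these bands were 0.10 and 0.12 for the ribosomal protein genes and 0.06 and 0.09 for the other genes. Between levels 4 and 6, the 7 ribosomal protein genes and the 1673 other genes had opposite signs at day 4 (0.03 and -0.12), and medians of -0.32 and -0.27 at day 8. The decline over days 4, 6 and 8 was seen in 93.1% and 97.4% of the ribosomal protein genes and in 69.1% and 78.9% of the other genes of the bands, and in 14.9% of genes below level -4. The bright end of the whole array also declined over days 4, 6 and 8, but it was highest in the control. The log2 signal at the 99th percentile of all probes, before scaling, was 16.36 in the control and 16.29, 16.16 and 16.09 on days 4, 6 and 8. At day 8, the ribosomal protein genes of the 2 brightest bands spread less than the other genes. None of the 29 genes between levels 6 and 8 was 1.5-fold lower at day 8, where 23.1% of the other genes were, and none was 1.5-fold higher, where 4.82% were. The middle part of the 29 genes, between the quartiles, ran from -0.36 to -0.17, and that of the other genes from -0.55 to -0.10. From level 8 upward the contrast was smaller. None of the 38 genes was past 1.5-fold at day 8, where 6.03% of the other genes were lower and 1.72% higher. The quartiles there were -0.24 and -0.10, against -0.33 and -0.09. At day 4 they were 0.08 and 0.19, against 0.02 and 0.15, a similar width. Between levels 4 and 6, 28.6% of the 7 ribosomal protein genes were 1.5-fold lower at day 8, where 27.4% of the other genes were. Members also averaged more probes per gene, with 177 probes for 79 genes against 35547 for 24541 in all. The effect of this on the spread was not tested.

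**Figure D3:**
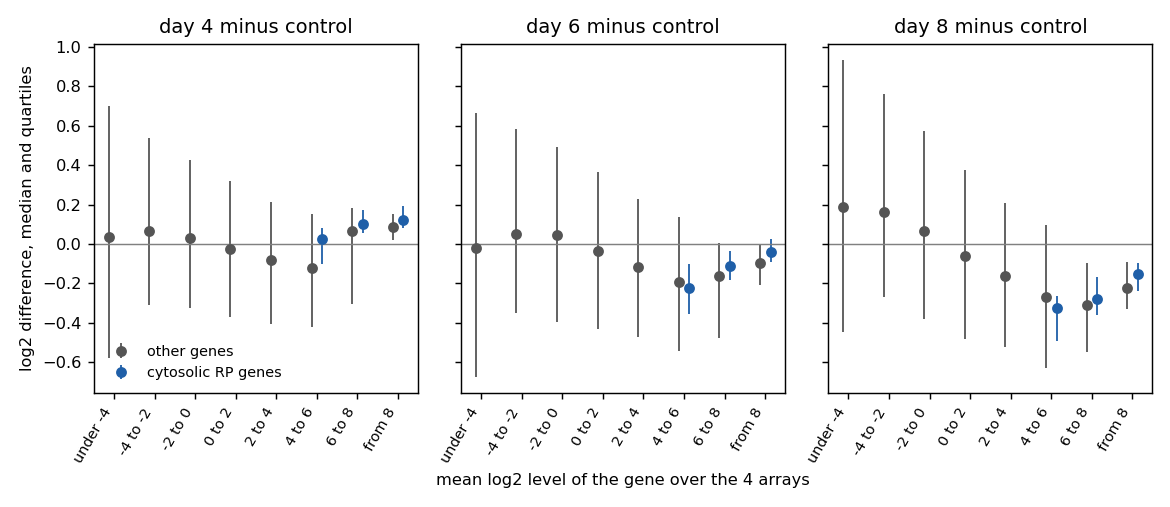
Median log2 difference from the control, with bars from the lower to the upper quartile, by the mean level of a gene over the 4 arrays (x axis, log2 relative to the 75th percentile), for ribosomal protein genes (blue, bands of at least 7 genes) and all other genes (grey). The grey points include ribosomal proteins outside the name rule. At day 8 the grey medians go from 0.19 in the dimmest band to -0.31 between levels 6 and 8, and the blue points lie beside the grey ones; quantile normalization moves the day 8 median of the ribosomal protein genes to 0.03.

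The subunits did not stand apart. The 30 genes of the small subunit had medians of 0.11, -0.09 and -0.21 at days 4, 6 and 8, and the 49 genes of the large subunit had 0.09, -0.08 and -0.20. In the small subunit 26 genes were lower than the control at day 8, and in the large subunit 44. The 3 genes with the highest level in the control were Rpl35, Rps20 and Rps14, although levels of different probes cannot be compared as amounts of RNA. Rpl35 was at 9.75 in the control and at 9.79, 9.66 and 9.55 on days 4, 6 and 8. Rps20 was at 9.73, 9.86, 9.76 and 9.47 on the same arrays. Rps14, a protein of the small subunit platform, was at 9.63, 9.78, 9.58 and 9.66. All 3 were highest at day 4.

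In the small subunit, the lowest difference at day 8 was that of Rps2, which lies near the mRNA entry site. Its levels were 8.67 in the control, 8.73, 8.32 and 8.17, a difference of -0.50 ± 0.14 at day 8. Rps4x, the X-linked form of Rps4, was at 7.57, 7.69, 7.42 and 7.14 (-0.44 ± 0.14). Rps6, the protein phosphorylated by the S6 kinases, was at 6.45, 6.51, 6.18 and 6.06 (-0.39 ± 0.12), and its 3 probes differed by 0.02 at most. These 3 genes shared the order of most members, with day 4 highest and day 8 lowest, and none was past 1.5-fold. Rps21 was at 6.06, 6.26, 6.19 and 5.67, so that most of its decline from day 4 lay between day 6 and day 8 (-0.52), on 1 probe. At the other end, Rps28, a small protein near the exit site, was at 8.82, 9.15, 9.03 and 8.96, a difference of 0.14 ± 0.20 at day 8, and Rps27 was at 8.38, 8.66, 8.57 and 8.43 (0.05 ± 0.10). Both were above the control on all 3 days, within their errors at day 8, and with the array median as the scale both had the other sign at day 8 (-0.12 and -0.22).

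In the large subunit, Rpl8, which lies close to the site where peptide bonds form, was at 8.28 in the control, 8.35, 8.00 and 7.81, a difference of -0.47 ± 0.14 at day 8. Rpl14 was at 6.74, 6.80, 6.49 and 6.31 (-0.43 ± 0.12), with probes from -0.71 to -0.26. Rpl31 was at 6.76, 6.86, 6.56 and 6.36 (-0.40 ± 0.09), and its 5 probes differed by 0.04 at most. Rpl31, named here after its values were seen, gave the same course on each of its probes. Rpl10a was at 8.83, 9.15, 8.99 and 8.88 (0.05 ± 0.14), and Rpl36 was at 8.18, 8.48, 8.33 and 8.21 (0.03 ± 0.12). At day 4 these last genes were higher than the control by 0.32 and 0.30, more than their errors, and at day 8 they lay within them, with the other sign when the array median was the scale.

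**Figure D4:**
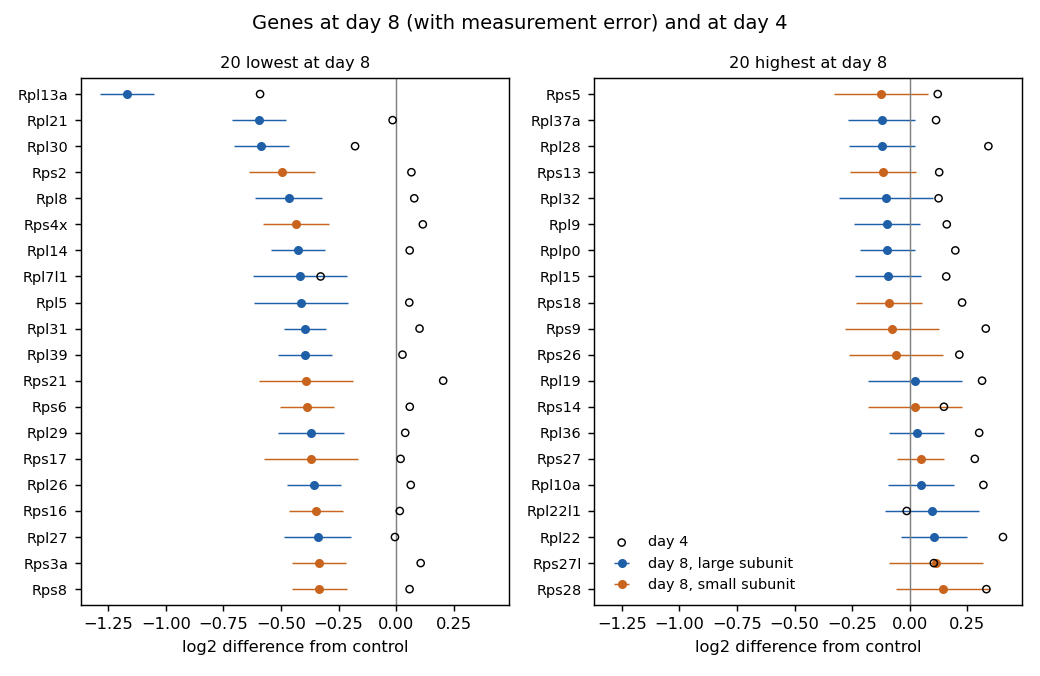
Log2 difference from the control (x axis) of the 20 ribosomal protein genes with the lowest (left) and the 20 with the highest (right) value at day 8, drawn as a filled point with its measurement error (1 SD), blue for the large and orange for the small subunit; open circles give day 4. Rpl39l, at -5.38, is not drawn. The open circles lie to the right of the filled points for nearly all genes, and Rpl13a, at -1.17, lies apart from the rest.

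The stalk of the large subunit, which draws elongation factors to the ribosome, is made of Rplp0, Rplp1 and Rplp2. Rplp0, often used as a reference gene, was at 8.87 in the control and then 9.07, 8.78 and 8.77, a difference of -0.10 ± 0.12 at day 8 over 3 probes. Rplp1 was at 9.12, 9.21, 9.03 and 8.88 (-0.24 ± 0.20), and Rplp2 at 9.34, 9.48, 9.32 and 9.19 (-0.15 ± 0.20). The 3 genes followed the same order of arrays, and for Rplp0 the sign at day 8 turned under 4 of the 7 scales. Rpl5 and Rpl11 form the 5S particle with 5S rRNA, which can also bind Mdm2 and so stabilise p53 when ribosome assembly fails. Rpl5 was at 7.02, 7.08, 6.83 and 6.60 (-0.41 ± 0.20), and Rpl11 was at 8.53, 8.61, 8.41 and 8.34 (-0.18 ± 0.12). Neither was past 1.5-fold on any day.

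Among the 13 members of a list of ribosomal proteins with known roles outside the ribosome, 11 were lower than the control at day 8, with a median of -0.24, and 1 (Rpl13a) was 1.5-fold lower, against 19.6% of all genes. Rps3, Rps7, Rps19, Rps27a, Rpl23 and Rpl26 had differences of -0.21 ± 0.12, -0.28 ± 0.20, -0.24 ± 0.20, -0.32 ± 0.13, -0.18 ± 0.10 and -0.36 ± 0.12. These 6 include partners of Mdm2 and, in Rps27a, a ubiquitin fused to a ribosomal protein. The sign of this median at day 8 turned under 2 of the 7 scales, with 0.05 as its highest value.

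The duplicate and tissue-restricted copies held the largest difference. Rpl39l, the copy of Rpl39 known for its expression in testis and germ cells, was the 1 member to lose its signal. Its processed signal was 109.7 in the control and then 9.33, 3.04 and 2.79, and it was well above background in the control alone. Set against the lowest signals well above background, it fell at least 10.2-fold by day 4, at least 13.4-fold by day 6 and at least 11.2-fold by day 8. Its single probe lies at chr16:10174657-10174716 on mm9, plus strand. The parent gene Rpl39 stayed bright, at 5.76, 5.79, 5.53 and 5.36, a difference of -0.39 ± 0.12 at day 8. With normexp correction and quantile normalization the difference of Rpl39l at day 8 was -1.43 in place of -5.38.

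The other measured copies under the name rule kept their signal. Rps27l, a p53 target gene, was at 7.49, 7.59, 7.55 and 7.60, and Rpl22l1, a copy of Rpl22, was at 7.18, 7.16, 7.25 and 7.27, so that their differences at day 8 were 0.11 ± 0.20 and 0.10 ± 0.20. They were the only members whose level at day 8 was above that at day 4, with 0.01 and 0.11, both within the error of 0.20, and both had the other sign against the control with the array median as the scale (-0.15 and -0.17). Rpl7l1 was at 0.54, 0.21, 0.13 and 0.12, a difference of -0.42 ± 0.20 at day 8 that was reached in the main by day 4. Rpl3l, the form of Rpl3 that striated muscle uses, and Rpl10l, the testis copy of the X-linked Rpl10, were not well above background on any array, with signals that carry no order. Outside the name rule, Rps4l, which RefSeq lists as a transcribed pseudogene and the array names Rps4y2, fell from a level of 3.45 in the control to 0.00, -0.91 and -0.92 on days 4, 6 and 8. Its difference of -4.36 ± 0.20 at day 8 stood beside that of Rps4x, -0.44.

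Probes of the same gene were a check within each array. Of the 79 genes, 54 had several probes, and the differences of their probes at day 8 spanned a median of 0.12. The span was under 0.2 in 40 genes and over 0.5 in 5 (Rpl13a, Rpl22, Rpl15, Rpl17 and Rpl30). Of these, Rpl15 and Rpl17 were named after their values were seen. Probes of Rpl13a and Rpl22 are shown, as 30 of their 60 bases, because the value of the gene turned on them. These are the last 30 bases for the Rpl13a probes at bases 753 and 758, and the first 30 for the others. Capitals mark ATTAAA, a variant of the signal for polyadenylation. Base numbers and positions are those the array files give for the whole probe, on mm9.

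Rpl13a, base 511 (chr7:52381388-52381529, minus strand): aaggaaaagtccaagatgcactatcggaag

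Rpl13a, base 753 (chr7:52381146-52381205, minus strand): catgagtttttATTAAAgtgcaaaccatgg

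Rpl13a, base 758 (chr7:52380920-52380948, minus strand): gttttATTAAAgtgcaaaccatggaatgaa

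Rpl22, base 385 (chr4:151706515-151706574, plus strand): ggaggaagacgaggattaggacacattggt

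Rpl22, base 1882 (chr4:151708012-151708071, plus strand): gctgtaaacaacattaaccctgggttgatt

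Rpl13a, a protein of the large subunit known for silencing of inflammatory mRNAs after interferon, had 3 probes that followed 2 different courses. The probe that begins at base 511 of the transcript was at 8.07 in the control and then 7.98, 7.88 and 7.76 (-0.31 ± 0.20). The probes that begin at bases 753 and 758, which share a run of 26 bases, were at 5.90 and 5.87 in the control, at 5.07 and 5.01 on day 4, at 4.58 and 4.51 on day 6, and at 4.34 and 4.24 on day 8. They fell by 1.56 ± 0.20 and fell by 1.63 ± 0.20, while the first probe lay among the other members. The mean of the 3, -1.17 ± 0.12, is therefore the value of neither course.

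Rpl22, an RNA-binding protein of the large subunit needed by developing T cells, had a probe at base 385 at 8.39, 8.51, 8.11 and 8.00 (-0.39 ± 0.20). Its probe at base 1882, near the end of a long transcript, was at 3.43, 4.12, 4.15 and 4.03 (0.60 ± 0.20), and was the 1 member probe past 1.5-fold higher at day 8. Rpl15 had the same arrangement, with -0.40 ± 0.20 at base 461 and 0.21 ± 0.20 at base 1530, the latter turning below 0 when the array median was the scale. In Rpl30 the probe at base 90 fell by 0.94 ± 0.20 from 2.97, and the probes at bases 220 and 338 had -0.44 ± 0.20 and -0.38 ± 0.20. In Rpl21 the probe at base 377 was at 7.25 in the control and had -0.44 ± 0.20, and those at bases 824 and 1514 were at -0.52 and -0.07 and fell by 0.75 ± 0.21 and fell by 0.60 ± 0.20. In Rps15a, whose call at day 6 was 1.5-fold lower, the probes at bases 250 and 320 were at -0.11 and -0.10 then, and the probe at base 4642 was at -4.63 in the control and -6.24 at day 6, where it was not well above background. When the brightest probe stood for each gene, 1 gene (Rpl39l) was 1.5-fold lower at day 8 in place of 4, and 72 of 79 were lower than the control in place of 70.

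**Figure D5:**
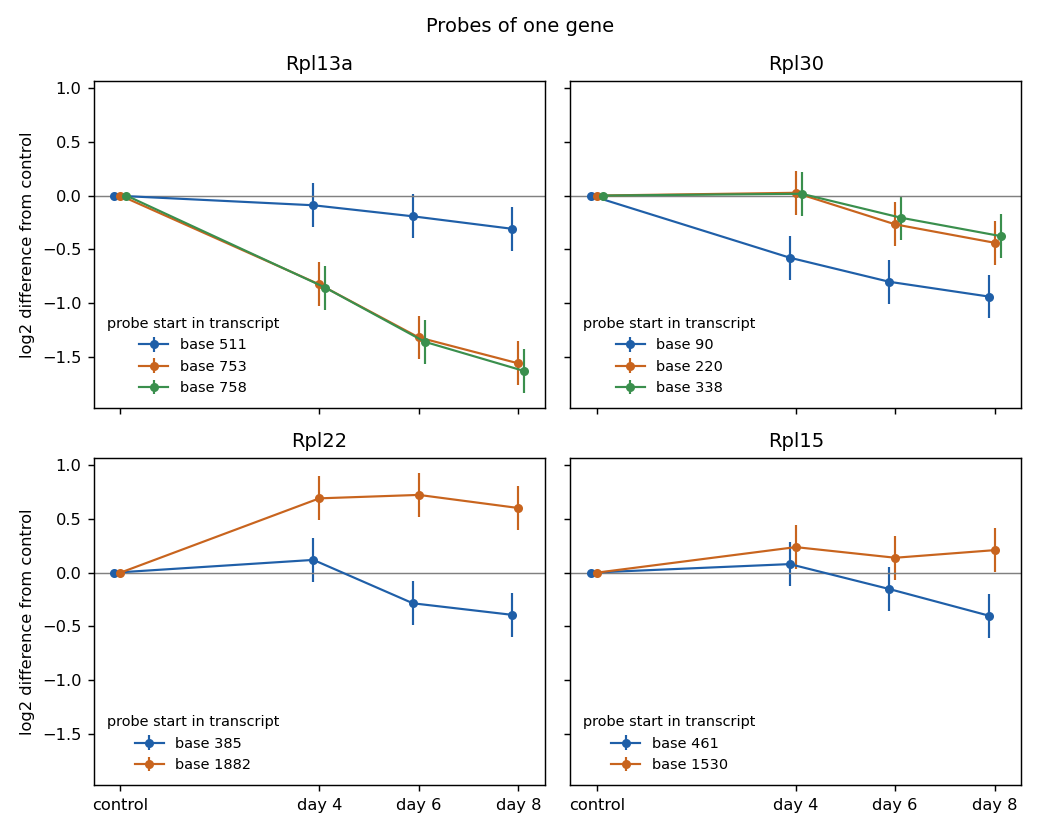
Log2 difference from the control (y axis) of each probe of Rpl13a, Rpl30, Rpl22 and Rpl15 on the 4 arrays (x axis), with the measurement error of the probe (1 SD). In Rpl13a the probes at bases 753 and 758 went to -1.56 and -1.63 at day 8 and the probe at base 511 to -0.31; in Rpl22 and Rpl15 the probes far along the transcript lay above 0 at day 8 and the others below it, the Rpl15 probe turning when the array median was the scale.

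Ribosomal protein genes have many pseudogenes of near-identical sequence, so that a probe can read several loci. Of 180 member probes with a position, 24 (in 14 genes) were placed by the array files on a chromosome other than that of their gene, among them both probes of Rps4x, on chromosomes 3 and 5. They had a median of -0.23 at day 8 and the other 153 kept probes, which include an Rps3 probe without a position, had -0.24. Runs of 25 bases shared with a probe of another gene name were present in 66 kept probes, with a median of -0.19, and absent from 111, with -0.25. Values of single genes in those groups are uncertain to that extent.

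Ribosomal proteins with other names lay close to the rest, and none of those given here was past 1.5-fold at day 8. Rpsa, the laminin receptor protein of the small subunit, was at 6.13, 6.25, 5.90 and 5.69 (-0.44 ± 0.10). Gnb2l1, the scaffold protein RACK1, was at 9.49, 9.57, 9.34 and 9.24 (-0.24 ± 0.20), and Rpl36al at 6.51, 6.38, 6.03 and 6.16 (-0.35 ± 0.20). Fau, which carries a ubiquitin-like protein in front of the ribosomal protein, was at 9.39, 9.54, 9.43 and 9.23 (-0.16 ± 0.20). The 76 genes of mitochondrial ribosomal proteins, which build the separate ribosome of that organelle, had medians of 0.07, 0.02 and -0.08, and the sign at day 8 turned under 5 of 7 scales. At day 8, 1 of them was 1.5-fold higher (Mrpl35, 0.61 ± 0.21) and 5 were lower, among them Mrpl18 (-0.66 ± 0.20), fewer than the 23.3% and 19.6% of all genes. Mrpl35 was past 1.5-fold under 4 of the 7 scales and Mrpl18 under 2.

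The genes that build ribosomes spread more widely than the ribosomal proteins, but a smaller share of them was past 1.5-fold than of all genes. As a group they were dimmer than the ribosomal protein genes, and the spreads were not compared at equal signal. Of 124 biogenesis genes, 12 were 1.5-fold higher and 7 lower at day 4 (all genes, 18.8% and 17%). At day 6 these counts were 17 and 9 (all genes, 19.6% and 20%), and at day 8 they were 14 and 11 (all genes, 23.3% and 19.6%). The medians were 0.14, 0.04 and -0.05, of which the last turned sign under 5 of the 7 scales. The 14 genes of RNA polymerase I and its factors, which transcribe rRNA, had a median of 0.24 at day 4, with 4 genes 1.5-fold higher and 0 lower (all genes, 18.8% and 17%), and the 12 genes of small nucleolar ribonucleoproteins, which modify rRNA, had 0.21 with none past 1.5-fold. The 37 genes of small subunit assembly, the 49 of large subunit assembly and the 12 of nuclear export and late steps had medians of 0.00, -0.03 and -0.19 at day 8, with the sign of the first turning under 1 scale and that of the second under 5. Mdn1, an ATPase that remodels the early large subunit, rose by 1.59 ± 0.15, Tsr2, the chaperone of Rps26, rose by 1.22 ± 0.20 and Noc3l rose by 0.86 ± 0.20 at day 8. Las1l, which cuts the spacer between the large subunit rRNAs, fell by 1.32 ± 0.20, Wdr36 fell by 1.08 ± 0.14 and Imp3 fell by 0.89 ± 0.20. Wdr36 and Imp3 belong to the complex that processes the precursor of the small subunit rRNA. All 6 kept their direction under the 7 scales and stayed past 1.5-fold, except Imp3, which was past it under 5.

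Of 41 initiation factors, 30 were lower than the control at day 8 by any amount (50.6% of all genes), with a median of -0.29 that stayed below 0 under all 7 scales. At 1.5-fold, 8 were lower, a share close to the 19.6% of all genes, and 0 were higher, against 23.3%. Eif2b3, of the exchange factor for eIF2, fell by 0.82 ± 0.14, Eif1ax fell by 0.81 ± 0.20 and Eif1 fell by 0.77 ± 0.20. Of 12 elongation and release factors, 2 were 1.5-fold lower, Eef1g (-0.71 ± 0.12) and Eef1d (-0.60 ± 0.20), both of the exchange complex of eEF1A, and 0 were higher, against 19.6% and 23.3% of all genes. The median of these 12, -0.22, turned sign under 2 of the 7 scales. Past 1.5-fold, Eif2b3 was called under all 7 scales, Eif1ax, Eif1 and Eef1g under 5 and Eef1d under 2. On the higher side, Eif4a2, a helicase of the cap-binding complex, had 0.57 ± 0.14, short of 1.5-fold, but was past it under 5 of the 7 scales, and Eif4e and Eif4e3, with 0.52 and 0.54, were past it under 3. Eef2, the translocase, was at 7.83, 7.92, 7.63 and 7.51, close to the course of the ribosomal proteins.

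Of 24 genes that regulate ribosomal protein synthesis, 5 were 1.5-fold higher and 3 lower at day 8, no more than the 23.3% and 19.6% of all genes. Sesn1, Sesn3 and Ddit4, each known as a brake on mTOR complex 1, rose by 1.36 ± 0.20, 1.34 ± 0.20 and 0.96 ± 0.20, and most of that was present at day 4, with 1.08, 1.14 and 1.15. Not every such brake on the list rose, since Tsc2 had -0.57 at day 8. That was short of 1.5-fold, but it was below 0 under all 7 scales and past 1.5-fold under 2. Eif4ebp1, a repressor of cap-dependent translation that mTOR inactivates, fell by 0.81 ± 0.20. Mtor, the kinase itself, was at -0.61, -0.54, -0.77 and -0.99, and Larp1 at 3.42, 3.31, 3.23 and 3.45, neither past 1.5-fold. Myc was at 1.17 in the control and then -1.48, -1.74 and -1.91 and fell by 3.08 ± 0.15. Whether the probe of Myc also reads the copy carried by the virus was not tested, so that the fall need not be that of all Myc mRNA. The qRT-PCR primers of the study include a human c-MYC pair. The study reports an early decrease of c-Myc in OSKM-CMPs, and states that transduced Klf4 and c-Myc stayed high in CMPs for about a week.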

How the data were processed

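Total RNA of 4 samples was hybridised to Agilent SurePrint G3 Mouse arrays, 1 array each. The authors deposited the scanner output of each array, with a processed signal intensity per spot already corrected for background by Feature Extraction (10.7.3.1 per the file headers, 9.5.3 in the submitters' processing notes), and a table of normalized log2 values, which the authors made with GeneSpring GX11. The deposited log2 values equal the scaled values used here up to a constant for each array, and served as an alternative.

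Control spots (3671 of 62976) were left out, and spots of one probe were averaged. The level was log2 of the processed signal minus the 75th percentile of its array. A probe was used when 1 or more arrays had it well above background, and probes of a gene were averaged. With 1 array a condition no test was made, and a gene was called at 1.5-fold. The number of arrays limits the precision. Gene names were those of the array, matched to RefSeq for chromosomes and starts. Scripts used Python 3.11.15 with numpy 2.4.6 and pandas 2.3.3, and R 4.3.3 with limma 3.58.1 for normexp (offset 50), and were tested on simulated data.

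Named were the members with the largest differences at day 8, those of the fixed lists, the brightest, those below background and up to 3 genes in each direction of every other translation list. Members and lists were chosen with earlier results of these data known. Results for some genes are not reported here.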

Additional observations from a re-analysis of the deposited data

How the results depend on the processing

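No paired analysis was possible because every group held 1 array, and for the same reason no replicate was left out. The number of arrays limits every value. Of 84 recomputed medians, 67 shifted by no more than the SD between repeated spots gives for a difference (0.095) and 17 by more, 5 of them with a change of sign, and of 318 values of single genes 172 shifted by less and 146 by more, and 25 of the 318 changed sign. The causes were not tested, except where fewer probes or genes entered or the fold was raised. Medians are of log2 differences and counts are of ribosomal protein genes at least 1.5-fold higher or lower.

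At 2-fold, 1 gene was called at day 4, 1 at day 6, 2 at day 8 and 1 from day 4 to day 8. With normexp and quantile normalization the medians were 0.080 at day 6, 0.020 at day 8, -0.044 for day 6 minus day 4 and -0.097 for day 8 minus day 4, and the counts were 1 at day 4, 2 at day 8, and 0 for both of these differences between days. With quantile normalization alone the medians were 0.076, 0.031, -0.054 and -0.096, and the counts were 1 at day 4, 2 at day 8 and 1 for day 8 minus day 4. When arrays were set to their medians, the values were -0.042, -0.22 and -0.47 at days 4, 6 and 8, -0.26 for day 8 minus day 6 and -0.46 for day 8 minus day 4, and the counts were 22 at day 8, 1 for day 8 minus day 6 and 13 for day 8 minus day 4. With the 75th percentile taken over probes well above background on all 4 arrays, the median at day 8 was -0.093, and the counts were 1 at day 4, 2 at day 8 and 1 for day 8 minus day 4.

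Without a filter on dim probes the counts were 7 at day 8, 3 for day 8 minus day 6 and 4 for day 8 minus day 4, which include genes below background. Over probes well above background on all 4 arrays they were 1 at day 4, 1 at day 6, 0 for day 6 minus day 4 and 1 for day 8 minus day 4. With a floor on dim values they were 0 for day 6 minus day 4 and 1 for day 8 minus day 4. With the brightest probe of each gene they were 1 at day 4, 1 at day 6 and 1 at day 8. Over single probes they were 5 at day 4, 7 at day 6, 9 at day 8, 4 for day 6 minus day 4, 1 for day 8 minus day 6 and 9 for day 8 minus day 4. Without the duplicate copies they were 1 at day 4, 0 for day 6 minus day 4 and 1 for day 8 minus day 4.

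The spike-in scale and the unscaled signal were chosen after seeing the data. On the spike-in scale the medians were -0.11 at day 8, -0.042 for day 6 minus day 4 and -0.16 for day 8 minus day 4, with 2 genes at day 8 and 1 for day 8 minus day 4. Without scaling, 2 genes were called at day 8 and 1 for day 8 minus day 4.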
